A study of Rattus norvegicus with 48 samples.

Results

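The kidney-restricted transcripts described here are 300 bead-array probes that gave signal in kidney and none above background in the left ventricle of the same rats. The detection p of a probe is the chance that background alone gives a signal as high. A probe qualified if its detection p was below 0.01 on all 24 kidney arrays and above 0.05 on all 24 left ventricular arrays. Of 22523 probes, 499 qualified, and the 300 kept were selected on measured values, the highest mean log2 signals over the 12 low-salt kidney arrays. All 300 passed the filter on low signal, which left 11534 probes for the tests. The last 2 probes kept were those of Tas1r1, with a mean log2 signal of 8.96, and Pex11a, with 8.95. Just outside, Pik3cb and the unnamed probe ILMN_1650166 both had 8.94. Of the 300 probes, 245 are named in the array annotation used here, with a second probe for Fmo4 and Ugt2b35, and 55 are unnamed here.

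The animals were 24 male Dahl salt-sensitive rats (SS/JrHsd), an inbred strain in which dietary salt raises blood pressure. Each of 4 groups held 6 rats, and each rat gave 1 kidney array and 1 left ventricular array. The high-salt antibody group ate 8% NaCl and received an anti-marinobufagenin monoclonal antibody (clone 3E9). The high-salt control group ate 8% NaCl and received mouse isotype IgG1. The low-salt antibody and low-salt control groups ate 0.1% NaCl and received the same antibody or the same IgG1. All rats shared 1 intraperitoneal dose of 50 µg IgG per kg. Diets began at 6 weeks of age, the dose fell in week 7 of the diet, stated as 15 weeks of age, and the age at sampling is given as 16 weeks. These stated ages cannot all hold, and the diet period is not taken as known here. Marinobufagenin is an endogenous steroid that inhibits the sodium pump, and the study asked what neutralising it does to the salt-loaded heart and kidney. The labels do not say which region of the kidney was taken. In whole tissue, fewer cells of a type and less RNA per cell cannot be told apart.

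The nephron filters plasma in the glomerulus and then recovers solutes along successive segments. The proximal tubule reabsorbs glucose, amino acids, phosphate and bicarbonate through solute carriers, degrades filtered peptides at its brush border and secretes organic ions and drug conjugates. The thick ascending limb reabsorbs salt without water, and the collecting duct adjusts sodium, water and acid excretion under aldosterone and vasopressin. The heart lacks most of this transport machinery.

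The brightest named members were mainly enzymes and secreted proteins. Spink1l, a Kazal-type protease inhibitor by its name, had a median deposited signal of 20440 intensity units over the 24 kidney arrays, against 123.6 over the 24 left ventricular arrays. Nat8, an acetyltransferase of cysteine conjugates, had 16420 in kidney and 128.9 in ventricle. Gsta2, a glutathione transferase, had 16190 in kidney and 143.4 in ventricle. The 10 brightest also held Ass1 (argininosuccinate synthase of arginine synthesis), Cesl1 (carboxylesterase-like), Dnase1 (a secreted nuclease), Klk1 (tissue kallikrein), Pdzk1ip1 (a small membrane protein of the proximal tubule) and the unnamed probes ILMN_1368626 and ILMN_1355678. Across all 300 probes the kidney medians ranged between 467.5 and 20440, and the ventricular medians between 79.3 and 153.3. The rule itself set this contrast, so it is a description. High-salt ventricular arrays detected 3859 to 7033 probes, low-salt ventricular arrays detected 7475 to 8356, and kidney arrays detected 9995 to 11163. The part of this difference in which probes met the rule was not tested.

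**Figure D1:**
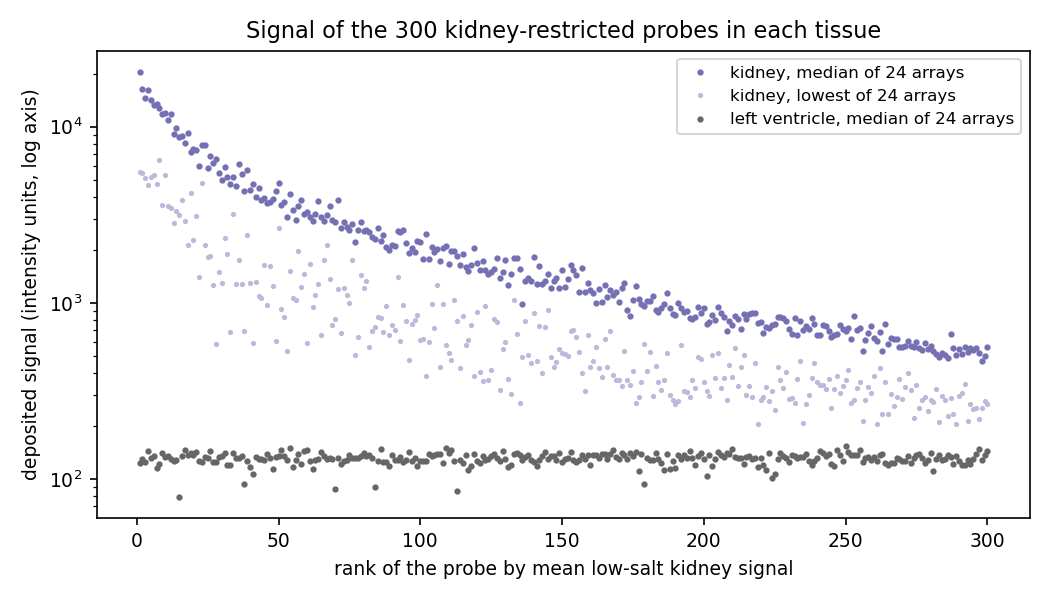
Deposited signal of the 300 kidney-restricted probes on a log axis, by rank. Purple points are kidney medians, pale points the lowest kidney array and grey points ventricular medians, each over 24 arrays; the ventricular medians lie in a flat band between 79.3 and 153.3 at every rank.

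Solute carriers were the most frequent family. They made up 35, or 14.4%, of the named member genes, against 307 of 13337 genes named on the array, or 2.3%. The members included the phosphate carriers Slc34a1, Slc34a2 and Slc34a3, the urate and organic anion carriers Slc17a1, Slc17a3 and Slc22a12, and the glucose and fructose carriers Slc5a2, Slc2a2 and Slc2a5. Claudins, the tight junction proteins that set paracellular permeability, gave 6 members, UDP-glucuronosyltransferases 5 and Hox transcription factors 5. In the order of protein-coding genes of the RefSeq rat assembly GRCr8, 21 of the named member genes stood beside another member, in 10 runs. Genes of other types were left out of this order, and the share over other genes was not counted. These runs included Slc17a1, Slc17a3 and Slc17a2, the pair Cldn3 and Cldn4, the pair Cyp2d5 and Cyp2d1, and Nphs1 beside Prodh2. Probes of near-identical genes (Cyp2d, Ugt, Akr1c, Nat8 and Klk1 families) may share signal, and their values are uncertain for that reason.

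Promoters of 198 named member genes were taken from the RefSeq table of GRCr8, as 250 bases before and 50 after the annotated start. HNF1 and HNF4 are transcription factors of the proximal tubule. A full HNF1 motif, searched on both strands, occurred in 1 member promoter (0.505%), that of Prodh2, and in 33 of 27457 promoters (0.12%). Its first 6 letters alone, GTTAAT, which lie within the longer motif, occurred in 23 member promoters (11.6%) and in 7.37% of all promoters. The HNF4 letters CAAAGTCCA occurred in 1 member promoter, that of Mfsd4a (0.505%, all 0.375%). A steroid hormone receptor element occurred in 3, those of Pigr, Rab17 and Serpinf2 (1.52%, all 0.422%). A match describes letters, not a bound site. The 250 bases of 4 promoters before the start are printed 5′ to 3′ with HNF1 letters in capitals. Slc5a2 and Fam151a are shown because their levels tracked each other most closely. Prodh2 is shown for its 11-letter match and Slc34a1, the main proximal tubule phosphate carrier, for its pair of short matches.
Slc5a2 promoter, chr1:192277371-192277620, plus strand: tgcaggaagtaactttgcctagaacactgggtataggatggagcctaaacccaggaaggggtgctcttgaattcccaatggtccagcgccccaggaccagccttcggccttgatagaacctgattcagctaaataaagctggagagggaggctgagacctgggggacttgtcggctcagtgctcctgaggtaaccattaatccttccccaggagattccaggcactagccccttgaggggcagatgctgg
Fam151a promoter, chr5:126743374-126743623, plus strand: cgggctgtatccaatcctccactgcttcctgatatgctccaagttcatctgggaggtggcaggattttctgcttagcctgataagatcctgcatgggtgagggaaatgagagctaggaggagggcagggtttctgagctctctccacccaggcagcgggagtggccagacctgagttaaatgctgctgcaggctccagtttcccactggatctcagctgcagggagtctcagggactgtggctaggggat
Prodh2 promoter, chr1:94880837-94881086, plus strand: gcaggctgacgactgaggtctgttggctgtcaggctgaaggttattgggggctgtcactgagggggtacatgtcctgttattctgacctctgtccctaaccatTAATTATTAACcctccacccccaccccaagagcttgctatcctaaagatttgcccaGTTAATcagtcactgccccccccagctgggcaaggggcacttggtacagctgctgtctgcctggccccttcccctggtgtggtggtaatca
Slc34a1 promoter, chr17:9238984-9239233, minus strand: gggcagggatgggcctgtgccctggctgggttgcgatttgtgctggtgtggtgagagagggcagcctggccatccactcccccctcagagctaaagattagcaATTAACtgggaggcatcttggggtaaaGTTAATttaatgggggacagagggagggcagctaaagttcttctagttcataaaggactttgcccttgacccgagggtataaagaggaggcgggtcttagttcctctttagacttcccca
Prodh2 held the short letters with their leftmost base at -142, inside the 11-letter match, and at -91 from the start site. Slc34a1 held them at -147 and -120. Slc5a2 and Fam151a had no match in these windows.

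Brightness overlapped between the 4 groups. On a log2 scale, the 95th percentile of deposited signal was 11.43 to 12.17 in the high-salt antibody group, 10.96 to 12.23 in the high-salt control group, 11.19 to 12.03 in the low-salt antibody group and 11.53 to 12.72 in the low-salt control group. High-salt control 1 was the dimmest kidney array, with Fxyd4 and Aqp2 at the top of all 24 arrays, and low-salt control 2 detected the fewest probes (9995). Levels from here on are log2 intensities after background correction and quantile normalization over the 24 kidney arrays. The median level of the 300 probes was 10.07 to 10.28 in the high-salt antibody arrays, 9.78 to 10.25 in the high-salt control arrays, 10.17 to 10.31 in the low-salt antibody arrays and 10.11 to 10.22 in the low-salt control arrays. The high-salt control group had the lowest arrays and the widest range, and it overlapped the other groups.

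**Figure D2:**
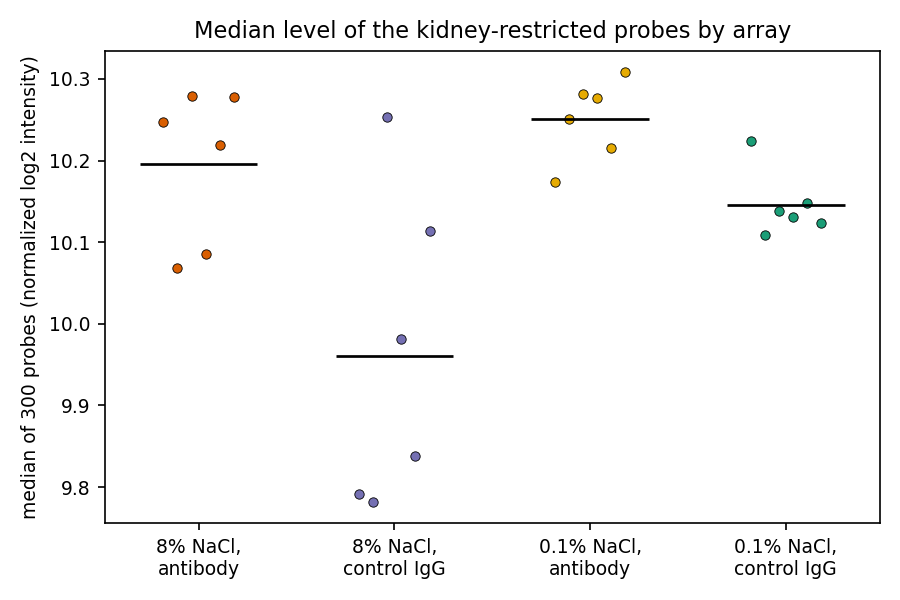
Median level of the 300 kidney-restricted probes on each kidney array (normalized log2 intensity), 6 points a group, with bars at group means. High-salt control arrays lie between 9.78 and 10.25 and the other groups between 10.07 and 10.31.

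With salt and control IgG, the called members with the largest differences were Cldn4 (1.77) and Car15 (1.06) upward and, among named genes, Ppp1r1b (-1.29) and Gucy1b2 (-1.21) downward. In the high-salt control against the low-salt control group, 75 of 300 members passed an adjusted p of 0.05 in limma, 8 higher and 67 lower. Of all 11534 probes tested 14% passed, 6.74% higher and 7.3% lower. The low-salt arrays ranked the members, so these counts can lean toward lower values and nothing is read from their direction. Ranking instead on the high-salt arrays gave 72 calls (15 higher, 57 lower), and all 499 qualifying probes gave 107 (22 higher, 85 lower). With median scaling 38 members passed (4 higher, 34 lower), and a fit on these 2 groups alone called 27 (4 higher, 23 lower). The median difference was -0.24 over the members and -0.02 over all probes tested. Groups did not overlap for 18 members (5.05% of all probes), 3 higher (2.42%) and 15 lower (2.63%).

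Cldn4, a claudin of the collecting duct, had the largest rise. Its levels were 9.10, 10.37 and 11.47 (lowest, median and highest of 6 arrays) in high-salt controls and 7.95, 8.75 and 9.16 in low-salt controls. In all, 5 of 6 high-salt control arrays lay above every low-salt control array, and the difference was 1.77 ± 0.39 (SE, limma adjusted p = 0.00557). Car15, a membrane-anchored carbonic anhydrase, was at 10.58, 11.29 and 11.61 in high-salt controls and 9.77, 10.16 and 10.64 in low-salt controls, a difference of 1.06 ± 0.19 (adjusted p = 0.00179). The ranges of Car15 met only at their ends. Steap1, of the metalloreductase family, rose by 0.99 (adjusted p = 0.0134), Rab17, an epithelial trafficking GTPase, by 0.84 (adjusted p = 0.00728), and Krt8, a keratin of simple epithelia, by 0.53 (adjusted p = 0.0124). Prrg4 (0.82), Degs2 (0.66), an enzyme of phytoceramide synthesis, and Spint1 (0.63), an inhibitor of epithelial serine proteases, completed the 8 rises. The call for Prrg4 was lost without high-salt control 2 (adjusted p = 0.0543).

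Among the falls, Ppp1r1b, the protein phosphatase inhibitor DARPP-32, was at 9.30, 10.13 and 11 in high-salt controls and 10.91, 11.25 and 12.34 in low-salt controls. Its groups overlapped narrowly and differed by -1.29 ± 0.28 (adjusted p = 0.00523). Its relative Ppp1r1a, phosphatase inhibitor 1, a gene of the thick ascending limb, differed by -1.08 (adjusted p = 0.00501). Gucy1b2, a soluble guanylate cyclase subunit, differed by -1.21 (adjusted p = 0.00452), and Nox4, the hydrogen peroxide producing oxidase of tubule cells, by -1.09 (adjusted p = 0.0318). Nox4 lost its call in 6 of 24 fits that left out 1 array, with an adjusted p of 0.0847 without high-salt control 2. Slco1a6, an organic anion carrier, differed by -1.08 (adjusted p = 0.00498), the cytochrome Cyp2d5 by -0.95 (adjusted p = 0.00452) and the acetyltransferase gene Nat8f1 by -1.03 (adjusted p = 0.00567). The other largest named falls were Spns3 (-1.18), the asialoglycoprotein receptor subunit Asgr1 (-1.12), the olfactory receptor gene Or2n1e (-0.99), Gpm6a (-0.95) and the serine protease Prss30 (-0.94). Or2n1e lost its call without high-salt control 1 (adjusted p = 0.0869) and Gpm6a without low-salt control 2 (adjusted p = 0.087), among other arrays. A second, dimmer Ppp1r1b probe outside the 300, detected on 22 left ventricular arrays, differed by -0.49 (adjusted p = 0.0053). The kidney restriction of Ppp1r1b therefore describes its member probe and not every probe of the gene.

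Of 31 listed transport genes of the proximal tubule, 9 fell and 0 rose in this comparison. Of all probes tested 7.3% passed lower and 6.74% higher. The median of the list was -0.30, and 26 of the 31 values were below 0. Members make up 17 of the 31, and the low-salt arrays ranked them, so nothing is read from this direction. With median scaling 4 fell, and with normalization over all 48 arrays 9 fell and 1 rose. Members among the falls were the peptide carrier Slc15a2 (-0.93), the organic anion and urate carriers Slc17a3 (-0.92), Slc22a12 (-0.61) and Slc17a1 (-0.56), the sodium-proton exchanger Slc9a3 (-0.78) and the amino acid carrier Slc6a18 (-0.61). Slc17a3 was at 9.80, 10.94 and 11.11 in high-salt controls and 11.27, 11.63 and 11.93 in low-salt controls, with no overlap. Among members of the list that did not pass, Slc13a1 differed by 0.75 (adjusted p = 0.0517). Slc5a2, the main glucose carrier, differed by 0.13 (adjusted p = 0.827), Slc34a1 by -0.16 (adjusted p = 0.53) and Slc34a3 by -0.21 (adjusted p = 0.652). In other lists, the podocyte slit diaphragm gene Nphs1 differed by -0.92 (adjusted p = 0.0102), the kidney transcription factor Lhx1 by -0.72 (adjusted p = 0.00452) and the vitamin D-degrading Cyp24a1 by -0.71 (adjusted p = 0.0449).

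Markers of injury, leukocytes and fat moved in the same comparison. Of 12 tubular injury genes 9 rose and all 12 values were above 0, with a median of 0.86, and Krt8 was the member among them. The share higher over all probes tested was 6.74%. With median scaling 7 of the 12 rose, and Krt8 lost its call. Of 6 leukocyte genes 4 rose (2 with median scaling), with a median of 0.65. Of 4 adipose genes tested 2 rose (Cfd and Adipoq), and 1 did with median scaling, while Lep and Retn were detected on no kidney array. The summed adipose level ran from 1530 to 9730 linear units in high-salt controls, with a median of 4370, and from 722 to 4530 in low-salt controls, with a median of 1490. None of 3 urothelial genes passed. The part of these cells in the results was not tested.

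Among salt-loaded rats, the antibody went with higher levels of a broad group of kidney-restricted transcripts and with lower levels of a small group that included Slc7a7, Slc5a2 and Phgdh. In the high-salt antibody against the high-salt control group, 42 members passed, 34 higher and 8 lower. Of all probes tested 2.72% passed, 1.66% higher and 1.07% lower. The median difference was 0.17 over the members and 0.02 over all probes. The ranking used none of these 12 arrays, though the detection part of the rule used them all. Groups did not overlap for 12 members (1.61% of all probes), 12 higher (1.01%) and 0 lower (0.607%) in the antibody group. Without high-salt antibody 5, 10 members passed, without high-salt antibody 1, 18 passed, and without high-salt control 3, 68 passed. Median scaling called 11 members, and a fit on these 2 groups alone called 3.

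The rises were spread over receptors, carriers and enzymes. Prlr, the prolactin receptor, was at 10.64, 11.11 and 11.24 in the high-salt antibody group and 8.55, 9.95 and 10.61 in high-salt controls. The groups did not overlap, and the difference was 1.21 ± 0.24 (adjusted p = 0.0106). Slc23a3, of the ascorbate carrier family, was at 11.11, 11.27 and 11.58 with the antibody and 9.19, 10.21 and 11.08 in high-salt controls, a difference of 1.13 ± 0.21 (adjusted p = 0.00975). Every antibody array of Slc23a3 lay above every control array. Cyp2d5 was at 9.48, 9.75 and 10.21 with the antibody and 7.88, 8.84 and 9.46 in controls, again without overlap (1.01 ± 0.20, adjusted p = 0.0106). Azgp1, a secreted lipid-mobilising glycoprotein (1.02), and Mme, the brush border peptidase neprilysin (0.95, adjusted p = 0.0133), also did not overlap. The largest rise of a named gene was that of Or2n1e (1.53, adjusted p = 0.012). Cyp2d1 rose by 1.43 (adjusted p = 0.0208), Prss30 by 1.15 and Ppp1r1a by 1.10. Akr1c12, an aldo-keto reductase, rose by 1.10, the vitamin E binding Afm by 1.07, the fructose carrier Slc2a5 by 1.05 and Slco1a6 by 1.0. A brighter Akr1c12 probe outside the 300, detected on all 24 ventricular arrays, differed by 0.07 (adjusted p = 0.926). Of the 34 rises, 24 had their lowest control value in high-salt control 1 and 30 their highest control value in high-salt control 3. Without high-salt antibody 5 the adjusted p was 0.0783 for Cyp2d1, 0.0746 for Afm, 0.0552 for Slc2a5, 0.055 for Ppp1r1a and 0.0792 for Slco1a6. Of the 24 fits that left out 1 array, Slco1a6 lost its call in 5, Cyp2d1 in 4, Afm in 2, and Slc2a5 and Ppp1r1a in 1. Leaving out both high-salt control 1 and low-salt control 2 gave 46 calls, 32 higher and 14 lower. With median scaling Or2n1e, Prlr, Ppp1r1a, Afm, Azgp1 and Slco1a6 lost their calls. None of the 12 largest named rises passed in the fit on the 2 groups alone.

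The falls had wide ranges in the antibody group. Slc7a7, the basolateral carrier of cationic amino acids, was at 9.20, 10.34 and 12.15 in the high-salt antibody group and 11.72, 11.94 and 12.26 in high-salt controls, a difference of -1.44 ± 0.34 (adjusted p = 0.0231). Slc5a2 was at 8.92, 10.31 and 11.90 with the antibody and 11.47, 11.71 and 12.06 in controls (-1.33 ± 0.32, adjusted p = 0.0236). Phgdh, the first enzyme of serine synthesis, was at 7.58, 8.74 and 10.31 with the antibody and 9.44, 10.31 and 10.62 in controls (-1.32 ± 0.29, adjusted p = 0.017). For each of these 3 genes, 5 antibody arrays lay below every control array and high-salt antibody 6 lay within the control range, while high-salt antibody 5 was the lowest. The same pair of arrays held the highest and lowest antibody values of Fam151a (-1.35), of Spp2, a secreted phosphoprotein (-1.28), and of the unnamed probe ILMN_1363234. Without high-salt antibody 5 the adjusted p was 0.0792 for Slc7a7, 0.0747 for Slc5a2, 0.0552 for Phgdh, 0.0853 for Fam151a and 0.15 for Spp2. Of the 24 fits that left out 1 array, Spp2 lost its call in 18, Fam151a in 5, Slc7a7 and Slc5a2 in 4 and Phgdh in 2. Steap1 (-1.31, adjusted p = 0.0106) and Krt8 (-0.54, adjusted p = 0.0314) also fell. Krt8 lost its call in 7 of the 24 fits, with the highest adjusted p (0.103) without high-salt antibody 5. With median scaling Slc7a7, Slc5a2, Phgdh, Fam151a, Spp2 and Krt8 lost their calls. None of the named falls, Steap1 included, passed in the fit on the 2 groups alone.

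The salt and antibody comparisons share the high-salt control arrays, so their values are set side by side without a measure of likeness. These arrays enter the salt difference with a plus sign and the antibody difference with a minus sign. The genes given here passed in both, which favours opposite signs, so no reversal by the antibody is read from them. Slco1a6 had a salt difference of -1.08 and an antibody difference of 1.0, Ppp1r1a had -1.08 and 1.10, Cyp2d5 had -0.95 and 1.01, and Gucy1b2 had -1.21 and 0.96. Steap1 had 0.99 and -1.31, and Krt8 had 0.53 and -0.54. The highest medians of Cyp2d5 (9.87), Gucy1b2 (10.85) and Slco1a6 (11.34) were those of low-salt controls, and their lowest were those of high-salt controls.

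**Figure D3:**
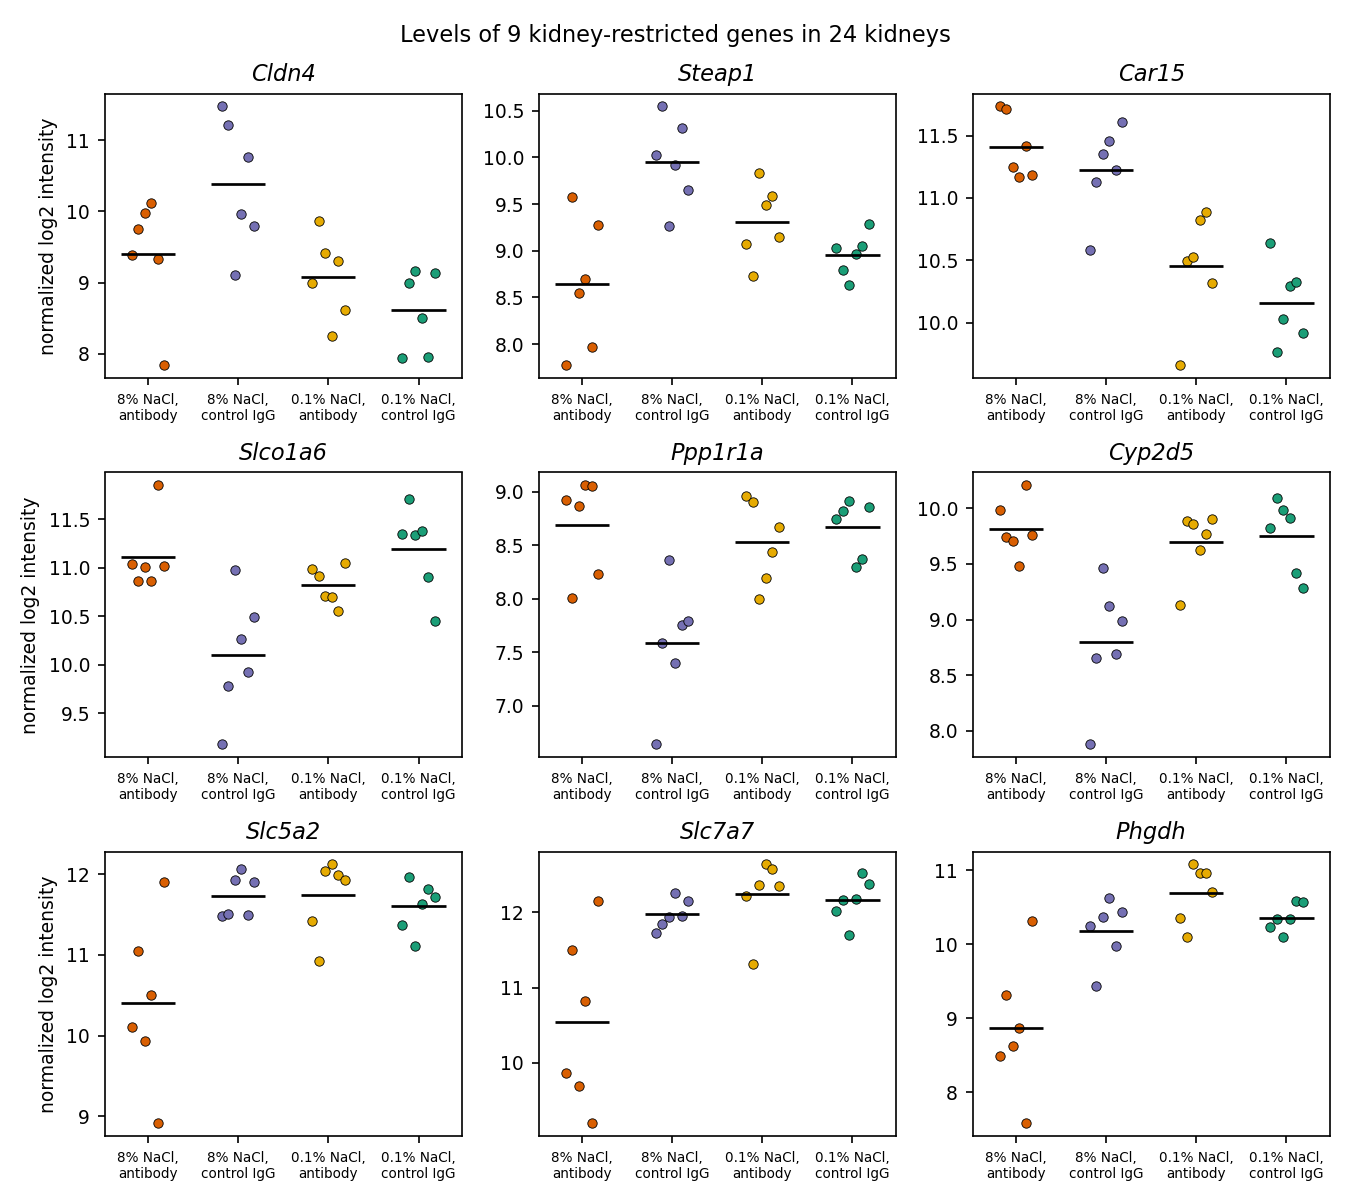
Levels of 9 kidney-restricted genes (normalized log2 intensity) on 24 kidney arrays, with 6 points per group and bars at group means. Slco1a6, Ppp1r1a and Cyp2d5 are lowest in high-salt controls, Slc5a2, Slc7a7 and Phgdh are lowest in the high-salt antibody group, where 1 array reaches the control range, and Car15 is high in both high-salt groups.

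By nephron segment, calls for the antibody on high salt ran in both directions among proximal tubule transport genes and upward among thick ascending limb genes. The shares over all probes tested were 1.66% higher and 1.07% lower. Of 31 proximal tubule transport genes 5 rose and 4 fell (median 0.03), and with median scaling 0 rose and 1 fell. The falls were the members Slc7a7 and Slc5a2 and 2 carriers outside the 300, the bicarbonate carrier Slc4a4 (-1.99, adjusted p = 0.00245) and the lactate carrier Slc5a12 (-1.82, adjusted p = 0.0323). The member that rose was Slc15a2 (0.84, adjusted p = 0.014). Of 9 thick ascending limb genes 5 rose and all 9 values were above 0, with a median of 0.69. With median scaling 1 of them passed, and with the authors' scores 8 of 9 values were above 0. Members among the rises were Ppp1r1a (1.10), the paracellular magnesium and calcium channel gene Cldn16 (0.80, adjusted p = 0.0266) and the sodium-selective claudin Cldn10 (0.62, adjusted p = 0.0395). The potassium channel Kcnj1 differed by 0.75 (adjusted p = 0.121) and the prostaglandin receptor Ptger3 by 0.69 (adjusted p = 0.332). Of 11 principal cell genes 2 rose (0 with median scaling), among them the epithelial sodium channel subunit Scnn1a (0.73, adjusted p = 0.0195). Of 11 intercalated cell genes 2 rose and all 11 values were above 0 (10 of 11 with median scaling or the authors' scores). With median scaling 1 passed, and with quantile normalization without background correction 4 did. The 3 members differed by 0.41 to 0.65 without passing: the anion exchangers Slc26a4 and Slc4a9 and the ammonia carrier Rhbg. None of 5 distal convoluted and connecting tubule genes passed: the salt carrier Slc12a3 differed by 0.18 (adjusted p = 0.854) and Klk1 by 0.47 (adjusted p = 0.25). None of 6 podocyte genes passed, Nphs1 differing by 0.58 (adjusted p = 0.178).

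Among markers of injury, leukocytes and fat, 3 genes passed here, beside 1.66% higher and 1.07% lower over all probes tested. Of 12 tubular injury genes 2 fell (Timp1 and Krt8), and all 12 values were below 0 (11 of 12 with the authors' scores), with a median of -0.56. None of 6 leukocyte genes passed, with all 6 values below 0 (median -0.31). Of 4 adipose genes tested 1 fell (Cfd; 0 with median scaling), and the summed adipose level was 699 to 1950 linear units in the high-salt antibody group and 1530 to 9730 in high-salt controls. The summed urothelial level was 132 to 296 with the antibody and 161 to 1490 in high-salt controls, with no gene of 3 past the threshold. Their part in the results was not tested.

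**Figure D4:**
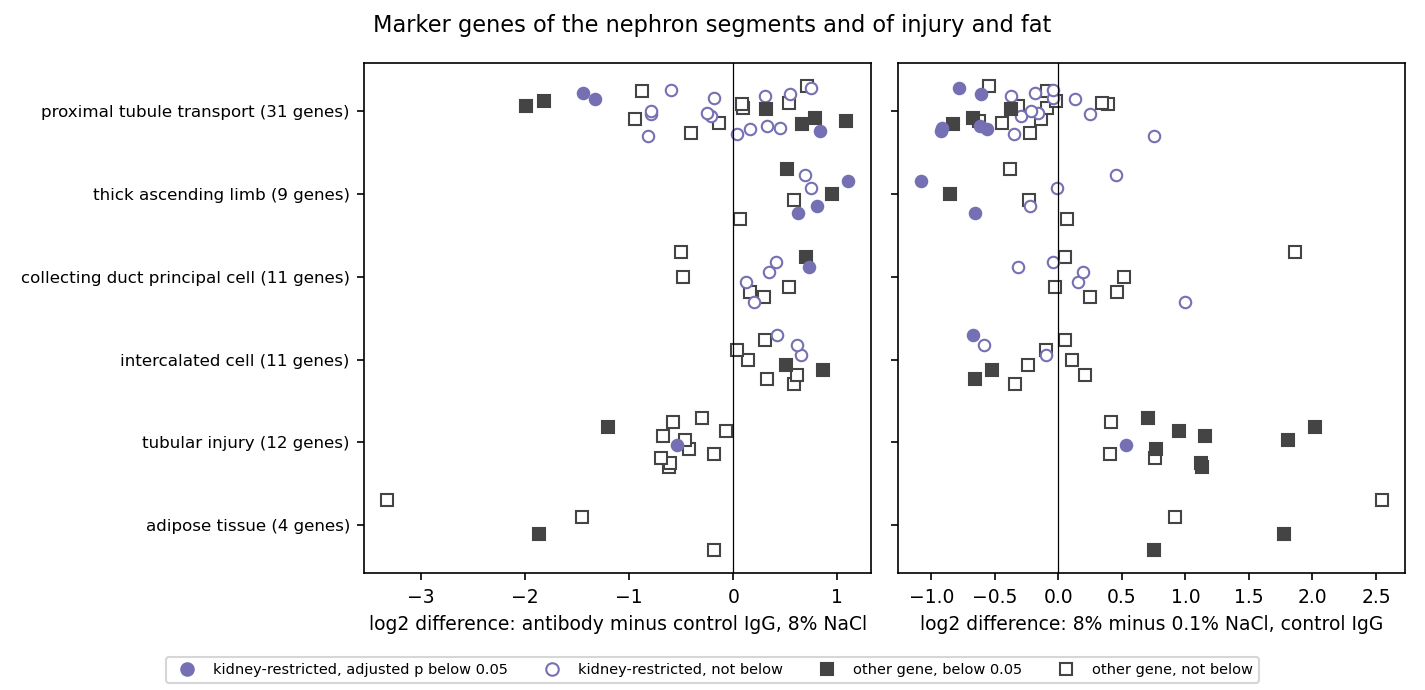
Log2 differences of marker genes for the antibody on high salt (left) and for salt with control IgG (right). Each point is 1 gene, round if kidney-restricted and filled if the adjusted p was below 0.05; with quantile normalization all 9 thick ascending limb genes lie above 0 on the left and all 12 tubular injury genes lie below 0 there and above 0 on the right.

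With salt under the antibody, the called members with the largest differences were Spp2 (-1.91), Phgdh (-1.83) and Slc7a7 (-1.71) downward and Car15 (0.96) and Hsd11b2 (0.65) upward. In the high-salt antibody against the low-salt antibody group, 21 members passed, 4 higher and 17 lower. Of all probes tested 1.84% passed, 0.624% higher and 1.21% lower. The ranking used the low-salt arrays, so the counts are again a description. The median was -0.05 over the members and 0.01 over all probes. With arrays scaled to a common median instead, 8 members were higher and 4 lower, and the median of all probes moved to 0.19. Without single arrays the count ranged between 5 (high-salt antibody 5) and 39 (high-salt antibody 6). It was 6 without high-salt antibody 4, 7 without low-salt antibody 3 or 4, 8 without high-salt antibody 1, 9 without high-salt antibody 3 or low-salt antibody 5 or 6, and 32 without low-salt control 2. Without both high-salt control 1 and low-salt control 2 it was 44. Of 31 proximal tubule transport genes 7 fell and 0 rose, with a median of -0.28, and with median scaling 2 fell, with a median of -0.06. Of 12 tubular injury genes 2 rose (Spp1 and Vim) and 11 values were above 0, with a median of 0.62, and with median scaling 3 rose. No leukocyte, adipose or urothelial gene passed. The part of injury in these results was not tested.

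Spp2 was at 7.90, 8.67 and 10.47 in the high-salt antibody group and 9.90, 11.10 and 11.24 in the low-salt antibody group, the largest fall (-1.91 ± 0.35, adjusted p = 0.00993). Phgdh was at 10.10, 10.83 and 11.08 in the low-salt antibody group, above 5 of the 6 high-salt antibody arrays throughout, and fell by 1.83 (adjusted p = 0.00511). The differences were -1.71 for Slc7a7 (adjusted p = 0.0149), -1.70 for Fam151a (adjusted p = 0.0133) and -1.33 for Slc5a2 (adjusted p = 0.0303). Other falls were the glycine cleavage enzyme Gldc (-1.53), the folate hydrolase Folh1 (-1.49), the glucuronidating enzyme Ugt2b7 (-1.47), antithrombin Serpinc1 (-1.33), Nox4 (-1.31), the membrane progestin receptor Paqr7 (-1.23) and the phosphate carrier Slc34a3 (-1.18). Spp2, Phgdh, Slc7a7, Fam151a and Car15 were called in every one of the 24 fits that left out 1 array. Without high-salt antibody 5 the adjusted p was 0.137 for Gldc, 0.106 for Nox4, 0.0801 for Slc34a3 and 0.0739 for Folh1, and without high-salt antibody 3 it was 0.0812 for Slc5a2. It was 0.12 for Paqr7 without high-salt antibody 4, 0.0545 for Serpinc1 without high-salt antibody 5 and 0.0595 for Ugt2b7 without low-salt antibody 3. These are the highest adjusted p-values of each gene. Of the 24 fits, the call was lost in 18 for Gldc, 16 for Paqr7 and 14 for Nox4. It was lost in 8 each for Slc34a3, Folh1 and Slc5a2, in 4 for Ugt2b7 and in 2 for Serpinc1.

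Hsd11b2 and Scnn1b, of the principal cell list, were among the 4 rises. Hsd11b2, which inactivates corticosterone and so guards the mineralocorticoid receptor, was at 10.51, 10.77 and 11.03 in the high-salt antibody group and 9.85, 10.18 and 10.24 in the low-salt antibody group. The groups did not overlap (0.65 ± 0.14, adjusted p = 0.0216). Scnn1b, a subunit of the epithelial sodium channel, was at 10.47, 10.63 and 10.81 in the high-salt antibody group and 9.91, 10.05 and 10.26 in the low-salt antibody group (0.57 ± 0.14, adjusted p = 0.0366), also apart. Car15 rose by 0.96 (adjusted p = 0.0149) and Degs2 by 0.56 (adjusted p = 0.0472). In high-salt controls against low-salt controls Hsd11b2 differed by 0.19 (adjusted p = 0.383) and Scnn1b by -0.05 (adjusted p = 0.863). The 2 salt differences were compared directly by the limma interaction test, and neither gene passed. The interaction was 0.45 for Hsd11b2 (adjusted p = 0.207) and 0.61 for Scnn1b (adjusted p = 0.0899). Of the 24 fits that left out 1 array, Degs2 lost its call in 18, Scnn1b in 10 and Hsd11b2 in 5. The highest adjusted p was 0.118 for Degs2 (without high-salt antibody 3). It was 0.094 for Scnn1b (without low-salt antibody 3) and 0.0635 for Hsd11b2 (without high-salt antibody 4). Of 11 principal cell genes tested, 3 rose, including the channel subunit Scnn1g outside the 300 (0.62, adjusted p = 0.0331). The share higher over all probes tested was 0.624%. The median of the list was 0.05, with 7 values above 0 and 4 below. Among its members that did not pass, the channel subunit Scnn1a differed by 0.05 (adjusted p = 0.917), Aqp2 by 0.13 and Fxyd4 by -0.43.

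The 2 salt comparisons use separate animals. In all, 3 members passed in both with the same sign, Car15 and Degs2 higher and Nox4 lower, which is 4% of the 75 and 14.3% of the 21. The call rates over all probes were unequal, 14% with control IgG and 1.84% under the antibody, which limits the overlap. Over the 300 members the differences had a Pearson r of -0.03, against 0.17 over all 11534 probes tested, as a description across probes of the same arrays. Signs were the same for 166 members (55.3%), and for 55.3% of all probes tested. The 67 members lower with salt in control rats had a median difference of 0.01 under the antibody. They were picked for passing in control rats, which favours values nearer 0 elsewhere, so nothing is read from this median.

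**Figure D5:**
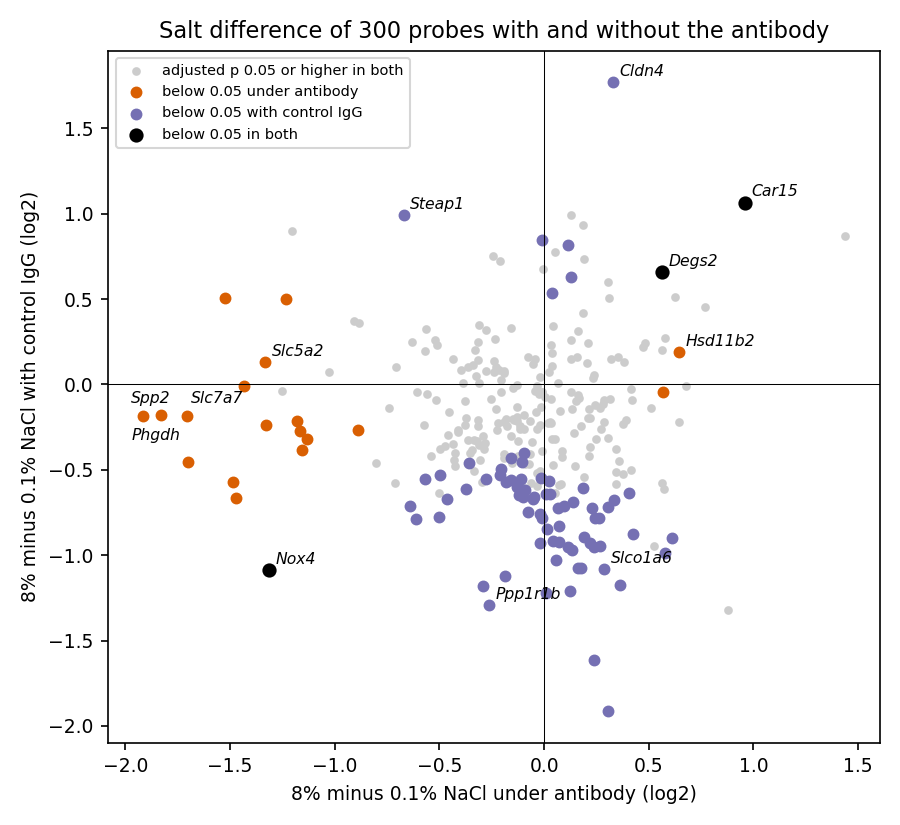
Salt difference (log2) of the 300 probes under the antibody (horizontal) against that with control IgG (vertical), coloured by which comparison passed an adjusted p of 0.05. The 3 black points, Car15, Degs2 and Nox4, passed in both. The purple falls, picked for passing with control IgG, gather near 0 on the horizontal axis.

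On low salt no member passed for the antibody against control IgG, and 0 of 11534 probes did in limma (0%). At an unadjusted p below 0.05 there were 30 members, or 10%, against 16.3% of all probes. The median was 0.05 over the members and 0.00 over all probes. The smallest p-values upward were those of Slc44a4, a choline carrier-like protein (0.35 ± 0.11, adjusted p = 0.134), Spint1 (0.49, adjusted p = 0.141) and Paqr7 (0.97, adjusted p = 0.154). Downward they were those of Galnt3, which glycosylates FGF23 (-0.48, adjusted p = 0.155), Slc17a3 (-0.51, adjusted p = 0.189) and the adhesion protein Cdh1 (-0.68, adjusted p = 0.194). Slc44a4 and Spint1 were the 2 members whose groups did not overlap (1.12% of all probes), 2 higher (0.538%). Median scaling gave 16 calls, all lower, with the median of all probes at -0.19. The authors' deposited scores gave 0 calls and weighting arrays by quality gave 12. With the antibody on high salt and on low salt set side by side, which share no arrays, the members' differences had a Pearson r of -0.31, against -0.175 over all probes, and 137 of 300 shared a sign (45.7%, all probes 46.5%).

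The antibody effect differed between diets for 8 members by the interaction test, 6 higher and 2 lower on high salt (1.11% of all probes, 0.737% higher and 0.373% lower). Median scaling called 24, all higher, with the median of all probes at 0.17, and the authors' scores called 2, both higher. Among named genes that passed, Slco1a6 had the largest positive interaction, with an antibody difference of 1.0 on high salt and -0.37 on low salt (interaction 1.37 ± 0.33, adjusted p = 0.046). Slc23a3 had 1.13 on high salt and -0.05 on low salt (1.19, adjusted p = 0.0495), Slc15a2 had 0.84 and -0.31 (1.15, adjusted p = 0.0328), and the palmitoyltransferase Zdhhc23 had 0.66 and -0.43 (1.08, adjusted p = 0.0298). Steap1 had -1.31 on high salt and 0.35 on low salt (-1.66, adjusted p = 0.032), and Phgdh had -1.32 and 0.33 (-1.65, adjusted p = 0.0495). The unnamed probes ILMN_1352516 (1.51) and ILMN_1355066 (1.3) also passed. None of the 6 named genes kept its call in every fit that left out 1 array, and the count moved by over 1.5 times in 22 of these 24 fits, between 0 (high-salt antibody 1 left out, among others) and 34 (high-salt control 3 left out).

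The spread within groups was described with no test. The median SD within groups was 0.37 over the members and 0.255 over all probes tested, and by group it was 0.30 in the high-salt antibody group, 0.46 in high-salt controls, 0.25 in the low-salt antibody group and 0.32 in low-salt controls. The steadiest members were Pdzk1ip1 (SD 0.11), Rhod, Hoxa7, Krt7 and Tspan33. The most variable were the unnamed probes ILMN_1364985 (SD 1.82), ILMN_1370329 and ILMN_1366891, with Fxyd4, a sodium pump regulator of the collecting duct (SD 1.33), and Fst, the activin antagonist follistatin (SD 1.17). Fxyd4 reached 14.05 on high-salt control 1, while the other 5 arrays of that group were at 9.13 to 10.80. Aqp2, the vasopressin-regulated water channel, reached 14.19 in the same group, with a group median of 11.52. Neither gene passed in any comparison: Aqp2 differed by 0.99 for salt in control rats (adjusted p = 0.185).

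Pairs of genes tracked each other across the 24 kidneys once group means were removed. The closest were Fam151a with Slc5a2 (r = 0.96), Hoga1 with Sugct (r = 0.96) and Ugt1a7c with Ugt1a1 (r = 0.96), each over 24 arrays. The Ugt1a genes share exons, and their probes may share signal. Over all pairs of the 300 probes the median r was 0.19, and 23.7% of pairs were above 0.5. All points of a pair share the arrays and their normalization. The first principal component of the members held 33.8% of their variance and the second 22.8%.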

How the data were processed

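Kidney and ventricular RNA was hybridised to 1-colour Illumina bead arrays after oligo-dT primed cRNA synthesis, per the labels' protocols, and the submitters' processing notes list GenomeStudio 2011.1. The deposited intensity of each probe is linear and not normalized between arrays, and each deposited detection p-value moves in steps of 0.00121. The authors' deposited score per probe matched each array's standardised log10 intensities to within 0.00649. Kidney intensities were corrected and quantile normalized with neqc (offset 16) of limma 3.58.1 in R 4.3.3, and figures were drawn in Python with matplotlib. A probe was fitted if 6 or more of 24 kidney arrays gave it a detection p under 0.05, using lmFit and eBayes on 4 group means, with Benjamini-Hochberg adjustment over all 11534. Fits were tested on simulated data. Probe names come from the platform annotation, updated through the gene identifiers of RefSeq for GRCr8. No chip position was given in the sources used here, so none was fitted. No 2 arrays held identical values. The number of arrays limits precision, and the tests' p-values rest on the variation among rats.

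The members and gene lists were chosen with earlier results of these data known. Named genes are, per comparison, the 12 largest rises and 12 largest falls among called members (where fewer than 6 were called, the 3 smallest p-values each way), the 10 brightest, the 5 most and 5 least variable, the probes at the limit of the ranking, and list members. Other genes were named after their values were seen.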

Additional observations from a re-analysis of the deposited data

Results flagged for a closer look

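Groups of 6 arrays were examined for 61 genes and the members' median. Of these groups 23, or 9.27%, held an array whose gap to its nearest neighbour passed Dixon's limit. For 1 group taken without selection, chance gives about 1 in 20. The genes were the called named genes, the 10 brightest and the 5 most and 5 least variable. Some were thus chosen for their spread and all share arrays, so the share is not a test against chance. In the high-salt antibody group, replicate 6 was low for Cldn4 (7.84) and Fst (7.66) and high for Paqr7 (9.28) and Ugt2b7 (9.89), and single arrays were high for Prrg4 (9.94, replicate 2), ILMN_1364985 (12.55, replicate 3) and Slco1a6 (11.85, replicate 5). In high-salt controls, replicate 1 was high for Fxyd4 (14.05) and low for Gpm6a (6.68), and replicate 3 was high for Paqr7 (9.55). In the low-salt antibody group, replicate 2 was low for Folh1 (8.25), Nox4 (9.36), Slc7a7 (11.32), Spink1l (13.51) and ILMN_1368626 (13.49), and replicate 1 was low for Cyp2d5 (9.13). In low-salt controls, replicate 2 was low for Gsta2 (13.16), Pdzk1ip1 (13.26), Prrg4 (7.98) and Rab17 (7.83) and high for Zdhhc23 (10.41). There, replicate 6 was high for Krt7 (11.88) and replicate 1 for the members' median (10.22).

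By the interaction test of limma, 8 members passed for an antibody difference that differed between diets, beside 1.11% of all probes tested. Leaving out 1 array gave 0 to 34 calls, and none of the 6 named genes kept its call in every such fit. The interaction was positive for Slco1a6 (1.37), Slc23a3 (1.19), Slc15a2 (1.15), Zdhhc23 (1.08), ILMN_1352516 (1.51) and ILMN_1355066 (1.3). It was negative for Steap1 (-1.66) and Phgdh (-1.65). The antibody differences of these 2 genes were -1.31 and -1.32 on high salt, and 0.35 and 0.33 on low salt.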

How the results depend on the processing

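Median scaling called 38 members for salt with control IgG, 11 for the antibody on high salt, 16 for the antibody on low salt, 12 for salt under the antibody and 24 for the interaction. It moved the members' median to -0.24, 0.17 and 0.42 in the last 3 of these, beside -0.19, 0.19 and 0.17 over all probes. Fitting only the groups compared called 27 for salt with control IgG and 3 for the antibody on high salt. Array weights called 80 for the antibody on high salt, 12 on low salt, 94 for salt under the antibody and 72 for the interaction, whose median became 0.0128. A brightness covariate called 44 for salt under the antibody and 17 for the interaction. Leaving out both arrays that stand apart called 44 for salt under the antibody. Testing all probes without a filter called 13 and 1 in these comparisons. For the interaction, the authors' scores called 2, and probes detected on all 24 arrays 23. Replicate numbers did not pair the arrays: same-numbered arrays had a mean correlation of 0.00687 and 5 of 24 arrays correlated best with their own number. With replicate number as a block, 64 members passed for salt with control IgG, 35 and 0 for the antibody on high and low salt, 24 for salt under the antibody and 0 for the interaction. Leaving out 1 array gave 53 to 96 calls for salt with control IgG, 10 to 68 for the antibody on high salt, 0 to 1 on low salt, 5 to 39 for salt under the antibody and 0 to 34 for the interaction. Over 67 named results and 11 settings, 612 values kept direction and side of the threshold, 111 lost their call, 8 gained one and 0 reversed. The cause of these changes was not tested.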
